A study of Mus musculus with 9 samples.

Results

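The genes described here are 35 lymphoid priming genes: early lymphoid receptors, the genes of V(D)J recombination, and B, T and shared lymphoid transcription factors, chosen as a list of names. Of these, 32 had a probe set annotated to that gene alone among 22180 genes measured in this way, and the probe set with the highest mean was used. Il2rg and Tcf7 had no such probe set, and Rag1 had only one that is shared with Iftap. Of the 32, 27 passed a filter on low mean level and were tested with 16636 genes in all, while Il7r, Rag2, Ebf1, Spib and Vpreb1 lay under the filter.

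The cells were hematopoietic stem cells (HSCs) sorted from bone marrow of mice aged 6 to 8 months, profiled on Affymetrix Mouse Gene 2.0 ST arrays, with 3 biological replicates per genotype and 1 array each. WT mice had both Bcl11a alleles floxed and no Cre. Het mice had 1 floxed Bcl11a allele and Mx1-Cre, and KO mice had both alleles floxed and Mx1-Cre. Mx1-Cre is switched on by interferon and so is not restricted to stem cells. All 3 groups received 5 doses of poly(I:C), an inducer of interferon, so Cre and Bcl11a deletion differ together between WT and the other groups. Marrow cells were first enriched for CD117 (Kit), and the gate kept LSK cells (lineage-negative, Sca-1-positive, Kit-positive) that carried CD150 but neither CD48 nor Flt3. The labels name YFP-positive or YFP-negative cells without saying which applied to which array. Nothing says whether cells of several mice were pooled for an array.

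Lymphoid priming is the low expression of lymphoid genes in stem and progenitor cells before they commit. As the cells pass through Flt3-positive progenitors, E proteins, Ikaros proteins and the receptors for Flt3 ligand, interleukin 7 and Notch ligands open the B and T programmes. Recombination of antigen receptor genes by Rag1, Rag2 and Dntt follows, with Ebf1 and Pax5 fixing the B fate and Tcf7, Gata3 and Bcl11b the T fate. Bcl11a, a zinc finger repressor, is required for B cell development and for lymphoid progenitors.

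For Bcl11a itself, which had 2 probe sets annotated to it alone, only the values of the higher mean are given. They read 8.73, 8.81 and 8.38 in WT, 8.34, 8.37 and 8.89 in Het and 7.82, 7.90 and 8.66 in KO HSCs on the log2 scale. The array labelled KO replicate 3 thus read inside the WT range, and the place of the probes relative to the deleted part is unknown here, so these readings do not check the labels. WT replicate 1 also stood apart. The mean of 12 HSC markers was 5.79 there, 6.85 and 7.07 on the other WT arrays, 7.26 to 7.66 on Het and 7.42 to 8.09 on KO arrays. Not every marker set it apart. Mecom, Hlf and Gata2 were lowest there, but Mllt3 read 7.99, 8.19 and 7.98 and Hoxb5 5.30, 4.89 and 5.58 on WT replicates 1 to 3. Slamf1 (CD150), which the gate selects, read 4.64 and 4.67 on WT replicates 1 and 2 and 6.43 to 7.94 on the other 7 arrays, and was under background on WT replicate 1. Kit read 8.75 to 10.01, and Ly6a (Sca-1) had no probe set annotated to it alone. The interquartile range over all probe sets was narrowest on WT replicate 1, at 2.22, against 2.39 to 2.83 on the other arrays. Array weights from limma were 0.61 for WT replicate 1 and 0.57 for the array labelled KO replicate 3, against 0.74 to 1.87 elsewhere. The part of array quality in these readings was not tested. Xist and Y-linked genes gave the sex of the mice: 2 WT, 1 Het and 1 KO array were from females. Several results that rest on WT replicate 1 or on the array labelled KO replicate 3 are given with and without it. Others, such as the differences of genes under background and of Il15ra, are given for all 9 arrays only. Shares of all genes and of receptor genes are for all 9 arrays throughout.

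The recombination genes, Il7r and Ebf1 did not read above background in HSCs, whereas the E protein genes, Ikzf1 and Ikzf2 did. The files hold no detection call, so background was set on each array at the 95th percentile of 1405 olfactory, vomeronasal and trace amine receptor genes, which blood cells are not known to use. It lay between 4.12 and 4.77 on the log2 scale. On all 9 arrays 11 of the 32 genes exceeded it, against 30% of all genes and 2.42% of the receptor genes. These were Notch1, Pax5, Foxo1, Cd79b, Tcf3, Tcf12, Tcf4, Ikzf1, Ikzf2, Gata3 and Sox4. Another 12 exceeded it on no array: Il7r, Dntt, Rag2, Ebf1, Spib, Irf4, Igll1, Vpreb1, Cd79a, Id3, Ikzf3 and Satb1. The remaining 9 were above it on some arrays: Ccr7, Vpreb2 and Lax1 on 8, Irf8, Ly6d and Cd52 on 6, Id2 on 4, Bcl11b on 2 and Ccr9 on 1.

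By genotype the count ran from 13 to 15. All 3 WT arrays were above background for 14 genes, the 11 above with Vpreb2, Ly6d and Cd52. All 3 Het arrays were so for 13, with Ccr7 and Lax1, and all 3 KO arrays for 15, with Ccr7, Irf8, Vpreb2 and Lax1. The background itself differed, with a mean of 4.521 on the WT, 4.499 on the Het and 4.229 on the KO arrays. Lax1 averaged 5.15 in WT and 4.81 in KO HSCs, and Ccr7 5.02 and 4.92. Both missed the WT count through WT replicate 1 alone, at −0.018 and −0.008 relative to its background. The counts therefore do not compare levels between genotypes. The number above background ranged from 14 to 18 on the WT, 13 to 18 on the Het and 15 to 19 on the KO arrays. The level that counts as background matters: 5 genes passed the 99th percentile on every array (Tcf3, Tcf12, Tcf4, Ikzf1 and Sox4), 18 passed the 90th, and 21 passed the highest reading of Y-linked genes on arrays from females, 3.32. Pax5, which only B cells use in blood, exceeded the 95th percentile by 0.12 to 0.42, and probes differ in their own background, so a small margin does not show a transcript.

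**Figure D1:**
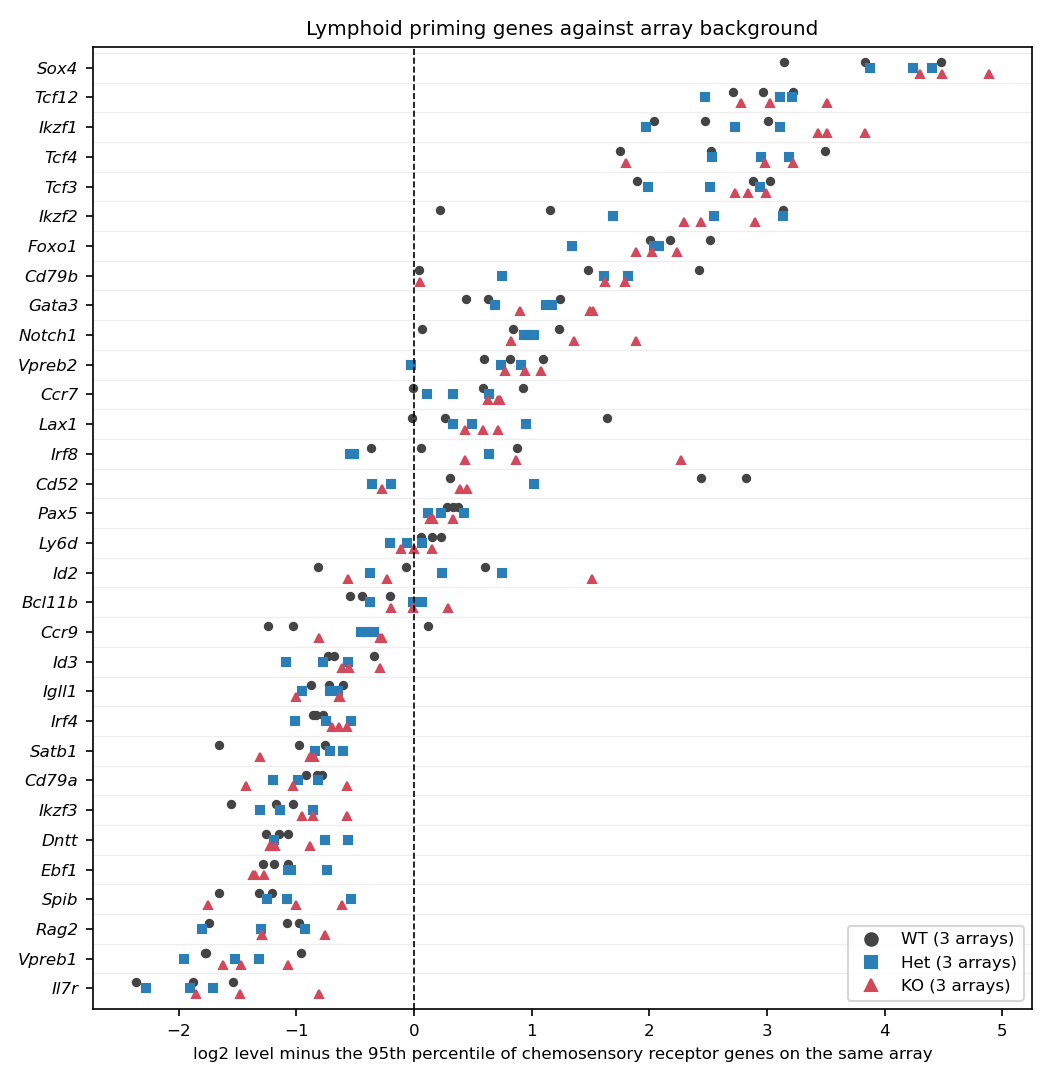
Log2 level of the 32 measured lymphoid priming genes minus the 95th percentile of chemosensory receptor genes on the same array (dashed line at 0), with a point for each of the 3 WT, 3 Het and 3 KO arrays. The top 10 genes and Pax5 lie right of the line on all 9 arrays, and the bottom 12 lie left of it on all 9.

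Among the Ikaros family, zinc finger factors that lymphocytes need, Ikzf1 (Ikaros) had the largest positive KO difference of the tested genes. It read 7.24, 6.63 and 7.22 in WT, 6.55, 7.40 and 7.36 in Het and 7.55, 7.98 and 7.93 in KO HSCs. The KO arrays were all above the WT and the Het arrays, and Het overlapped WT. The KO minus WT difference was 0.79 (SE 0.298, 95% interval 0.13 to 1.45), which is 1.73-fold, and did not pass with limma (adjusted p = 0.563). The exact two-sided permutation p was 0.1, the smallest that 3 arrays against 3 allow. KO minus Het was 0.72 (adjusted p = 0.998). The KO difference was 0.70 among females, where 1 KO array met 2 WT arrays, and 1.14 among males, where 2 met 1. It was 0.74 without the array labelled KO replicate 3, 0.90 without WT replicate 1 and 0.59 without WT replicate 2, the smallest with 1 array left out.

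Ikzf2 (Helios) read 4.99, 5.74 and 7.35 in WT, 7.72, 6.36 and 6.80 in Het and 7.02, 6.59 and 6.71 in KO HSCs. All 3 KO arrays lay inside the WT range. The differences of 0.75 for KO (95% interval −0.46 to 1.95, adjusted p = 0.718 with limma) and 0.93 for Het were smaller than the WT standard deviation of 1.21. Without WT replicate 1 the KO difference was 0.23. Ikzf3 (Aiolos), a factor of later lymphocytes, stayed under background, with readings from 3.03 to 3.74 and a KO minus WT difference of 0.17.

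The E proteins Tcf3, Tcf12 and Tcf4, basic helix-loop-helix factors that start the lymphoid programme, were all above background on every array, and none passed the test in any comparison. Tcf3 (E2A) averaged 7.12 ± 0.417 in WT, 6.98 ± 0.355 in Het and 7.08 ± 0.291 in KO HSCs (mean ± SD, n = 3 arrays each, as below). Tcf12 (HEB) averaged 7.49 ± 0.060, 7.43 ± 0.331 and 7.34 ± 0.254, and Tcf4 (E2-2), which plasmacytoid dendritic cells need, 7.11 ± 0.590, 7.39 ± 0.259 and 6.90 ± 0.595. For Tcf3 the KO minus WT difference was −0.04 with a 95% interval of −0.69 to 0.61, and for Tcf12 it was −0.15 (−0.69 to 0.39). The Id proteins, which block E proteins, were dim. Id3 was under background throughout (3.48 to 4.25), and Id2 was above it on 1 WT, 2 Het and 1 KO array, with a wide spread in KO cells (5.63, 3.92 and 3.86).

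Of the B lineage factors, Foxo1, which drives Il7r and Rag gene expression in lymphoid progenitors, was the one read well above background. It read 6.77, 6.76 and 6.73 in WT, 6.62, 6.01 and 6.33 in Het and 6.14, 6.04 and 6.65 in KO HSCs. All WT arrays were above all others, yet the differences were small: −0.48 for KO (95% interval −1.03 to 0.08, adjusted p = 0.644 with limma) and −0.43 for Het (adjusted p = 0.992). The KO difference was −0.66 without the array labelled KO replicate 3 and −0.36 without KO replicate 2, the 2 ends of its range with 1 array left out. A second Foxo1 probe set, with a lower mean, differed by −0.09 in KO and 0.14 in Het cells, so the 2 probe sets disagree.

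Irf8, a factor of B cells and of monocyte and dendritic cell progenitors, read 4.40, 5.46 and 4.27 in WT, 4.04, 4.16 and 4.89 in Het and 4.99, 4.58 and 6.69 in KO HSCs. The highest reading was that of the array labelled KO replicate 3. The KO minus WT difference of 0.71 (95% interval −0.47 to 1.89, adjusted p = 0.720 with limma) was 0.08 without that array, and a second probe set gave 0.19. Pax5, the B commitment factor, averaged 4.85 ± 0.300 in WT, 4.76 ± 0.309 in Het and 4.44 ± 0.145 in KO HSCs. Ebf1, Irf4 and Spib, which act in committed B and plasmacytoid cells, were under background on every array.

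Ebf1, the factor that starts the B programme, read 3.58, 3.30 and 3.14 in WT, 3.51, 3.62 and 3.51 in Het and 2.77, 2.78 and 3.14 in KO HSCs. Its KO arrays were below all Het arrays (difference −0.65) and met WT at 3.14, but every one of these readings lay at least 0.74 under the background of its array. Fitted without the filter, KO minus Het had an adjusted p of 0.998.

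The pre-B receptor genes, whose proteins first signal that a heavy chain was made, include Igll1, Vpreb1 and Vpreb2 on chromosome 16. Vpreb1 and Vpreb2 are near-identical copies, and the probes of such copies can share signal. The promoter windows of these genes are shown. Windows of 300 bases, from 250 before to 50 after the start site, come from RefSeq (GRCm38.p6) and run 5′ to 3′ on the gene's strand. Capitals mark TGACCA, the motif that BCL11A is known to bind, on either strand, where it reads TGGTCA on the opposite one. Tcf3 is added as the other gene of the list with a match.
Igll1, chr16:16863936-16864235, - strand: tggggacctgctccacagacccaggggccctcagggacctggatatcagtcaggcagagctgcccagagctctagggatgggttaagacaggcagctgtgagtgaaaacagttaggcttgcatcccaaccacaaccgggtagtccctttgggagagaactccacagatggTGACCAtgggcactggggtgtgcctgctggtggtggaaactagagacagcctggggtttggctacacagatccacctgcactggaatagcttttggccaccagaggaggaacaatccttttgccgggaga
Vpreb1, chr16:16869206-16869505, - strand: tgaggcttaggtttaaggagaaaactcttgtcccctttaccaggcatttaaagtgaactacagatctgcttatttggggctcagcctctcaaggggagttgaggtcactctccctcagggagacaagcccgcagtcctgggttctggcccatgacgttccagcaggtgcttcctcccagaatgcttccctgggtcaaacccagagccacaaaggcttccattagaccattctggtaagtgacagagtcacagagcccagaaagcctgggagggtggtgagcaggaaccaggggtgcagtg
Vpreb2, chr16:17980315-17980614, + strand: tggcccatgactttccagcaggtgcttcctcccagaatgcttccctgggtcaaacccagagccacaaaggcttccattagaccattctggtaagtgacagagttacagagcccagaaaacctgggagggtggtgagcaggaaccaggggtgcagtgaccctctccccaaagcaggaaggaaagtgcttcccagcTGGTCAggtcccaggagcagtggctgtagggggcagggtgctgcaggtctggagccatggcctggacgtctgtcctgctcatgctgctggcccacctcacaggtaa
Tcf3, chr10:80433586-80433885, - strand: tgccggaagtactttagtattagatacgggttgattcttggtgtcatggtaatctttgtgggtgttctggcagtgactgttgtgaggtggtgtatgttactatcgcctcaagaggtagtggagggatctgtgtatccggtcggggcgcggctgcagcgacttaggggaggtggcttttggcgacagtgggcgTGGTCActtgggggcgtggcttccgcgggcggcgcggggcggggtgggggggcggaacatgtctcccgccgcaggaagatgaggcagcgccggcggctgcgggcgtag
In all, 28 of the 35 genes had a window, and 3 of them, 10.7%, held the motif in 1 window or more, against 15.4% of all 27025 genes. In Igll1 the match begins 80 bases before the start site, in Vpreb2 56 and in Tcf3 58. Where the Vpreb1 and Vpreb2 windows overlap when aligned, 153 of 156 bases are identical; the Vpreb1 window ends before the stretch that holds the Vpreb2 match. A match describes the letters of the window and is not a measured binding site.

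Vpreb2, a surrogate light chain gene, averaged 5.36 ± 0.045 in WT, 5.04 ± 0.427 in Het and 5.16 ± 0.311 in KO HSCs and was above background on 8 of 9 arrays. Vpreb1 averaged 3.02 ± 0.217, 2.90 ± 0.177 and 2.84 ± 0.443 and was above it on none. The likeness given above is of promoter windows and not of probes. Probe sequences were not compared and shared signal was not tested, so neither level is certain. Igll1, the other surrogate light chain gene, stayed under background (3.15 to 4.02).

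Cd79a and Cd79b encode the signalling pair of the B cell receptor. Cd79a read 3.85, 3.76 and 3.43 in WT, 3.76, 3.47 and 3.26 in Het and 3.09, 3.58 and 2.99 in KO HSCs, under background throughout (KO minus WT −0.46, adjusted p = 0.650 with limma). Cd79b read 6.25, 4.63 and 6.63 in WT, 5.33, 6.28 and 6.07 in Het and 5.91, 5.77 and 4.47 in KO HSCs. Its lowest readings, on WT replicate 2 and the array labelled KO replicate 3, were 0.04 and 0.05 above background, and the KO minus WT difference of −0.45 became 0.0033 without the latter. Among females it was −1.97 and among males 1.21. Of 11 B cell markers 9 were measured, with 4 to 6 above background on each array. Their mean was 4.79 to 5.06 on the WT, 4.60 to 4.86 on the Het and 4.37 to 4.74 on the KO arrays. Ms4a1 (CD20), Cd22 and Cd79a were under background on every array, while Ighm (5.05 to 6.82), H2-Ab1 (5.71 to 8.96), H2-Aa (5.06 to 7.29) and Cd79b were above it on all 9. In bulk RNA, fewer cells of a type and less RNA per cell cannot be told apart, and the part of B cell RNA in these values was not tested.

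None of the 4 measured T lineage factors passed the test in any comparison. Sox4, a factor of early lymphoid and stem cells, read 8.60, 7.73 and 8.69 in WT, 8.46, 8.91 and 8.65 in Het and 8.42, 9.04 and 8.91 in KO HSCs (KO minus WT 0.45, 95% interval −0.23 to 1.13, adjusted p = 0.705 with limma), and the KO difference was 0.15 without WT replicate 2. Gata3, which T and innate lymphoid cells need, averaged 5.29 ± 0.50 in WT, 5.49 ± 0.484 in Het and 5.53 ± 0.460 in KO HSCs. A second Gata3 probe set read 4.72, 5.15 and 4.99 in WT and 5.68, 5.76 and 5.58 in KO HSCs, with no overlap and a difference of 0.72, where the main one gave 0.24. The mean of both gave 0.48 (adjusted p = 0.644 with limma).

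Bcl11b, the paralog of Bcl11a that fixes the T fate, read 4.56, 4.04 and 3.77 in WT, 4.65, 4.66 and 3.88 in Het and 4.41, 4.14 and 4.22 in KO HSCs. It exceeded background on 1 Het and 1 KO array and differed by 0.13 between KO and WT (95% interval −0.52 to 0.78). Satb1, a chromatin organiser that promotes lymphoid output of stem cells, was under background on every array. It read 3.11, 3.83 and 3.23 in WT, 3.74, 3.95 and 3.65 in Het and 3.24, 3.30 and 3.11 in KO HSCs. The Het arrays were all above the KO arrays (KO minus Het −0.56, 95% interval −1.10 to −0.02, adjusted p = 0.998 with limma), while WT overlapped both.

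Apart from Notch1 and Ccr7, the receptors and the recombination genes were dim. Il7r, the interleukin 7 receptor chain of lymphoid progenitors, read 2.89, 2.22 and 2.67 in WT, 2.30, 2.96 and 2.35 in Het and 2.64, 2.30 and 3.61 in KO HSCs, at least 0.81 under background on each array. Notch1, which directs the T fate, was above background on all arrays, with 5.24 ± 0.344 in WT, 5.48 ± 0.214 in Het and 5.59 ± 0.391 in KO HSCs. Ccr7 and Ccr9, homing receptors of lymphocytes and thymus-seeding cells, differed by −0.10 and −0.03 between KO and WT.

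Dntt, which adds bases at recombination joints, read 3.51, 3.44 and 3.14 in WT, 3.82, 4.11 and 3.06 in Het and 2.94, 2.93 and 3.53 in KO HSCs, under background everywhere. The recombinase gene Rag2 read 2.78 to 3.79 over all arrays. The probe set shared by Rag1 and Iftap read 4.02, 3.33 and 3.03 in WT, 3.30, 3.06 and 3.20 in Het and 2.92, 3.01 and 3.18 in KO HSCs, under background on all 9 arrays.

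Cd52, the gene of a small surface glycoprotein of lymphocytes and progenitors, had the largest difference of the list. It read 7.59, 4.89 and 6.65 in WT, 5.60, 4.47 and 3.89 in Het and 4.51, 3.88 and 4.87 in KO HSCs. WT replicates 1 and 3 stood well above all other arrays, and WT replicate 2 was only 0.02 above the highest KO array and inside the Het range. The KO minus WT difference was −1.96 (SE 0.641, 95% interval −3.38 to −0.53), and the Het difference was −1.72 (−3.15 to −0.30). Neither passed with limma (adjusted p = 0.508 and 0.967), and exact two-sided permutation tests gave p = 0.1 (KO) and p = 0.2 (Het).

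Both high WT arrays came from female mice. Among females, with 2 WT arrays and 1 of each other genotype, the KO difference was −2.25 and the Het difference −3.23. Among males, with 1 WT array and 2 of each other genotype, they were −0.70 and 0.15. Without WT replicate 1 the KO and Het differences were −1.35 and −1.12, and without WT replicate 2 they were −2.70 and −2.47. The same WT replicates 1 and 3 were the only arrays on which Flt3, a receptor that the gate excludes, read above background (4.99 and 5.36, against 3.55 to 4.10 elsewhere). Cd48, also excluded by the gate, was above background there too, at 4.83 and 4.57, as on Het replicate 1 and the array labelled KO replicate 3. Other markers of the progenitor list had other patterns. Cd34 read 7.79, 8.07 and 7.95 in WT and 10.09, 9.50 and 9.08 in KO HSCs, Cd27 was lowest on WT replicate 1 at 6.80 and read 8.82 and 8.63 on the other WT arrays, and Cd33 was under background throughout. The mean of 6 measured progenitor markers, Cd52 among them, was 5.89, 5.54 and 6.12 on the WT, 5.92, 5.42 and 5.43 on the Het and 5.74, 5.48 and 5.50 on the KO arrays. Of 8 tested neutrophil markers, 7 were lower in KO than in WT HSCs (median −0.68), beside 54.4% of all genes. With limma 4 were lower at an unadjusted p under 0.05, beside 2.81% of all genes, and 0 passed adjustment. In Het HSCs 3 of the 8 were lower than in WT and 5 higher. S100a8 read 8.97, 8.59 and 8.42 in WT, 5.06, 8.74 and 7.07 in Het and 5.34, 6.74 and 2.31 in KO HSCs. The part of sex, or of progenitor or neutrophil RNA, in the Cd52 difference was not tested. Ly6d and Lax1, a marker of B-biased progenitors and a lymphocyte adaptor, differed by −0.43 and −0.34 between KO and WT, neither past the threshold. The WT mean of Lax1 was raised by WT replicate 3, at 5.85, against 4.75 and 4.85 on the other WT arrays.

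**Figure D2:**
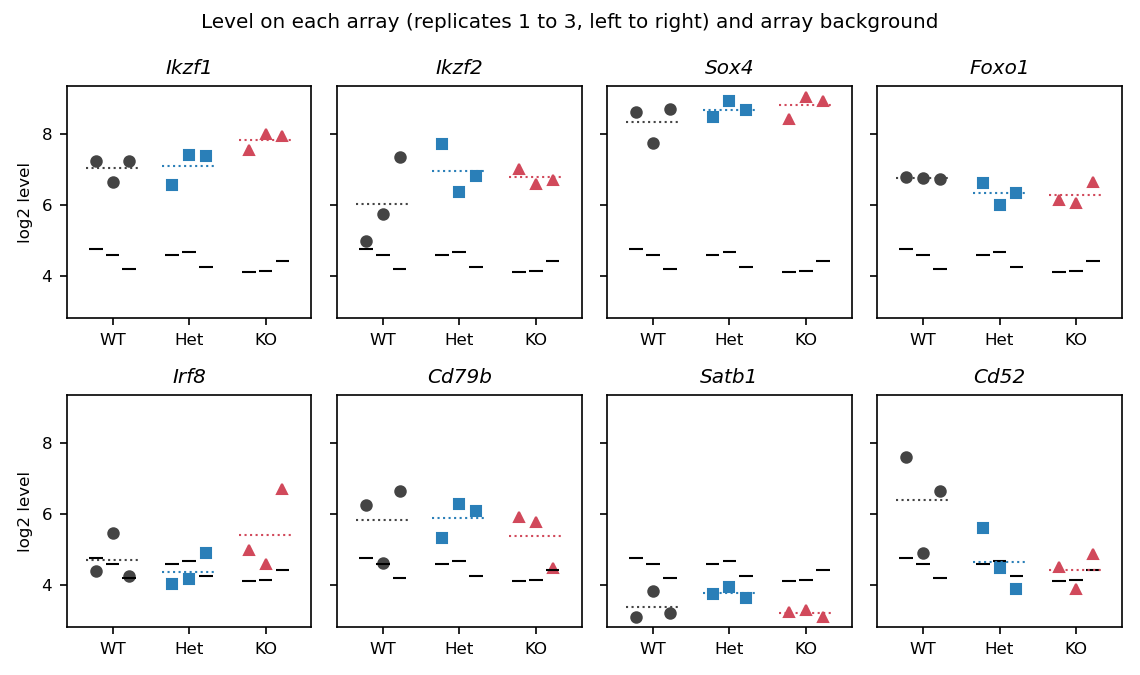
Log2 level of 8 lymphoid priming genes on each array, replicates 1 to 3 from left to right within WT (circles), Het (squares) and KO (triangles); dotted lines are genotype means (n = 3) and short black bars the background of the same array. Ikzf1 is highest on the 3 KO arrays, Cd52 is high on WT replicates 1 and 3, and Satb1 lies under background on all 9 arrays.

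Deletion of both alleles was compared with WT first. None of the 27 tested genes passed an adjusted p under 0.05 with limma, where 0.0421% of all genes did, and adjusted p ran from 0.508 to 0.987. At an unadjusted p under 0.05 there were 2, Ikzf1 higher and Cd52 lower, against 8.21% of all genes (5.4% higher, 2.81% lower). Of the 27, 9 were higher and 18 lower, with a median difference of −0.15, beside −0.04 and 54.4% lower over all genes. The count of 2 was 1 without WT replicate 1, where Cd52 dropped out, and 4 without WT replicate 3. Without WT replicate 2 it was 2, with Cd79b lower in place of Ikzf1. Arrays did not overlap for 1 higher gene, Ikzf1, and 2 lower ones, Foxo1 and Cd52, where 6.51% and 7.32% of all genes had such a pattern. The 95% interval lay within 1 log2 unit of no change for 14 of the 27. Only 4 of these, Tcf3, Tcf12, Notch1 and Pax5, were above background on all 9 arrays. RMA compresses differences of dim transcripts, so a narrow interval of a dim gene does not bound the change of its transcript. For 13 of the 27, including Ikzf1, Ikzf2, Foxo1, Sox4, Gata3, Tcf4 and Cd79b, the interval did not exclude a difference of 1 log2 unit.

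Loss of 1 allele gave no gene of the list past the threshold either. With limma 0 of 27 genes passed (0% of all genes), and 1, Cd52, was lower at an unadjusted p under 0.05, against 4.89% of all genes (3.12% higher, 1.77% lower). The count of 1 was 0 without WT replicate 1, Het replicate 2 or Het replicate 3, and 2 without WT replicate 2. Of the 27, 14 were higher and 13 lower in Het than in WT cells, with a median of 0.03, beside −0.01 and 51.4% lower over all genes. Arrays did not overlap for Foxo1 alone, which was lower, as 3.9% of all genes were. Intervals lay within 1 log2 unit for 20 genes.

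Between KO and Het cells 0 genes of the list, and 0% of all genes, passed with limma. Ikzf1, higher in KO, and Satb1, lower, had an unadjusted p under 0.05, against 4.56% of all genes (2.61% higher, 1.95% lower). The count of 2 was 0 without Het replicate 1 or the array labelled KO replicate 3, and 1 without Het replicate 2, KO replicate 1 or KO replicate 2. Of the 27, 10 were higher and 17 lower, with a median of −0.14, beside −0.02 and 52.8% lower over all genes. Intervals lay within 1 log2 unit for 18 genes. Arrays did not overlap for Ikzf1, which was higher (4.42% of all genes), and for Satb1 and Lax1, which were lower (5.4%). An F test over the 3 genotypes called 0 of 27 genes and 0% of all genes, with 2 at an unadjusted p under 0.05, Cd52 and Ikzf1 (adjusted p = 0.757 and 0.833), beside 5.91% of all genes. The 3 comparisons share arrays, so their values are given side by side and not as separate evidence.

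**Figure D3:**
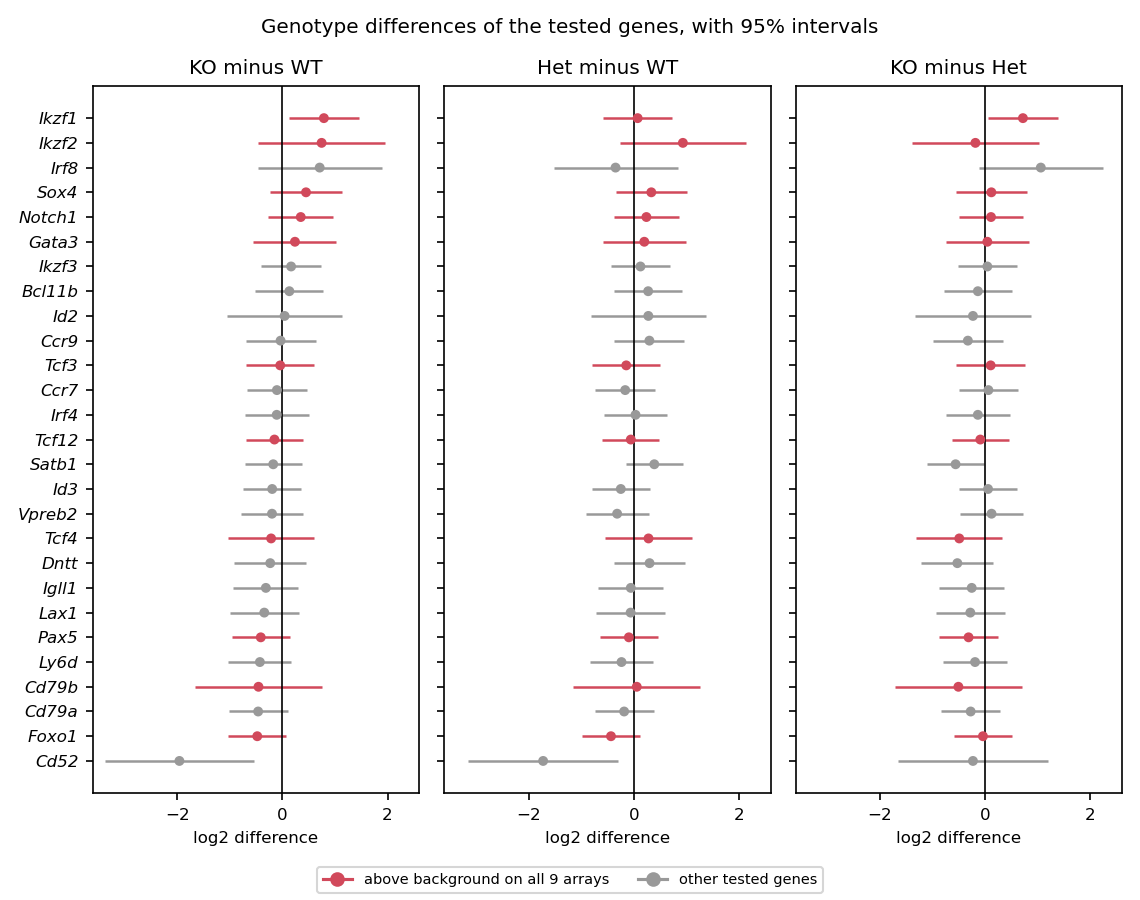
Log2 differences of the 27 tested genes between genotypes with 95% intervals from the limma fit (n = 3 arrays per genotype), ordered by KO minus WT; genes above background on all 9 arrays are red, others grey. Ikzf1 (0.79) and Cd52 (−1.96) are the genes whose KO minus WT interval leaves out 0; none passed after adjustment.

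Genes under background were set beside the receptor genes. The 12 genes above background on no array had a median KO minus WT difference of −0.18, with 10 lower and 2 higher, and the 1405 receptor genes had a median of −0.13. For KO minus Het the medians were −0.20 and −0.10, and for Het minus WT −0.01, with 6 lower and 6 higher, and −0.03. On single arrays the median of the 12 genes was 3.66, 3.41 and 3.19 in WT, 3.63, 3.60 and 3.28 in Het and 3.13, 3.15 and 3.55 in KO HSCs. The median of the receptor genes was 2.56, 2.23 and 2.12, 2.21, 2.47 and 2.13, and 2.05, 2.03 and 2.41 on the same arrays. KO replicates 1 and 2 were lowest on both measures and WT replicate 1 was highest on both. WT replicates 2 and 3 lay inside the range of the KO arrays on both. The median differences are for all arrays and are not given without WT replicate 1. The 11 genes above background on all arrays had a median KO minus WT difference of −0.04, with 5 higher and 6 lower.

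**Figure D4:**
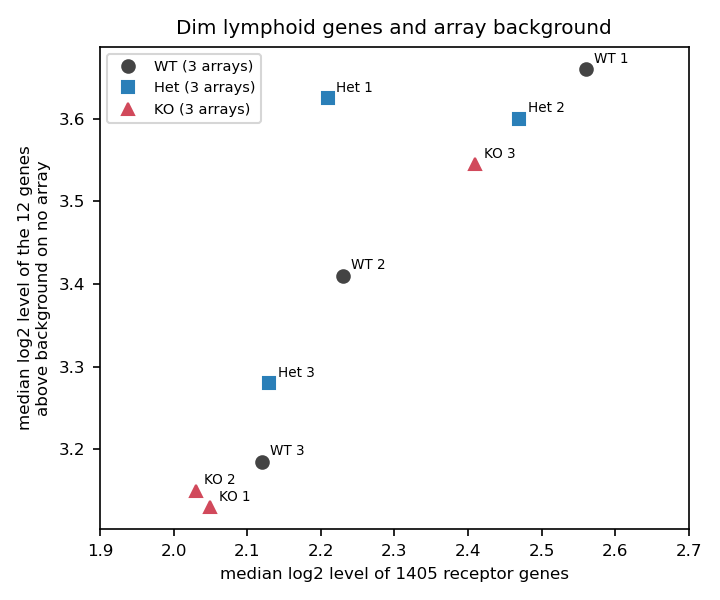
Median log2 level of the 12 lymphoid priming genes above background on no array (vertical axis) against the median log2 level of 1405 chemosensory receptor genes (horizontal axis), with 1 point per array. KO replicates 1 and 2 lie lowest on both axes and WT replicate 1 highest on both.

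Other lymphoid genes were taken from 5 further lists. Of 67 tested genes 28 were higher and 39 lower in KO than in WT cells (median −0.05), and none passed with limma. An unadjusted p under 0.05 was reached by 9 higher and 2 lower genes, beside 5.4% and 2.81% of all genes, and without WT replicate 1 by 7 and 5 of 66. Among 13 cytokine and Notch signalling genes, Jak1, the kinase of the interleukin 7 receptor, read 8.02, 8.10 and 8.05 in WT and 8.93, 8.85 and 8.74 in KO HSCs, without overlap (0.78, adjusted p = 0.410 with limma). Flt3 differed by −1.06 (adjusted p = 0.475), with −1.61 among females and −0.20 among males, and Il15ra by 1.32 (0.627).

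Among 20 further factors of lymphoid and stem cells, 13 were higher and 7 lower, with a median of 0.25, beside 54.4% lower over all genes. An unadjusted p under 0.05 was reached by 5 higher and 0 lower genes, beside 5.4% and 2.81% of all genes, and by 3 and 0 without WT replicate 1. Mef2c, which favours the lymphoid over the myeloid fate, read 8.63, 8.36 and 8.45 in WT, 8.78, 8.87 and 8.87 in Het and 9.07, 9.36 and 9.19 in KO HSCs (KO minus WT 0.73, SE 0.204, adjusted p = 0.413 with limma). The groups did not overlap on this probe set, and values of a second Mef2c probe set are not given. The KO difference was 0.65 among females and 0.86 among males. Lmo2, a stem cell factor, differed by 0.87 and Tox, a factor of T and innate lymphoid cells, by 1.44 (adjusted p = 0.547 and 0.563). The list holds genes that HSCs also use, and the 12 HSC markers had a median KO minus WT difference of 1.27, with 12 higher, 8 of them at an unadjusted p under 0.05 and 0 past adjustment. Without WT replicate 1 the median was 0.84, with 11 higher, 4 of them at an unadjusted p under 0.05, Gata2 at 0.015 and Procr at −0.013. The part of HSC RNA in the values of the list was not tested.

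B lineage genes outside the main list had a median of −0.14 (−0.04 without WT replicate 1 and −0.31 without the array labelled KO replicate 3), with 3 higher and 8 lower, and 0 with an unadjusted p under 0.05. Cd24a differed by 0.65, Btk, a kinase of the B cell receptor pathway, by −0.69 and the ligase gene Lig4 by 0.41. Of 14 T and NK lineage genes 1 was higher and 13 lower, with a median of −0.31, beside 54.4% lower over all genes and 81.4% lower among the 269 receptor genes tested (median −0.22). Of the 14, 6 were under background on every array: Cd3e, Cd4, Cd8a, Cd2, Zap70 and Ncr1. Without WT replicate 1 the median was −0.17, with 2 higher and 11 lower, but the shares of all genes and receptor genes without it are not given. With all arrays the higher one was Klrb1c, the NK1.1 receptor, at 3.98, 4.95 and 3.77 in WT and 6.04, 7.07 and 6.14 in KO HSCs (2.18, adjusted p = 0.168 with limma). Nkg7, a protein of cytotoxic granules, read 5.96, 6.17 and 7.87 in WT and 4.81, 5.08 and 4.85 in KO HSCs (−1.75, adjusted p = 0.358), and Thy1 differed by −0.73. Of 7 NK cell markers, Ncr1, Klrd1, Gzma and Eomes were under background on every array, and Nkg7 and Prf1 were above it on all 9. Of the lymphoid surface and signalling genes, Rhoh, a GTPase of lymphocyte receptor signalling, differed by 1.12 (adjusted p = 0.514), Ptprc (CD45) by 0.50 and Gpr183 by −0.54.

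**Figure D5:**
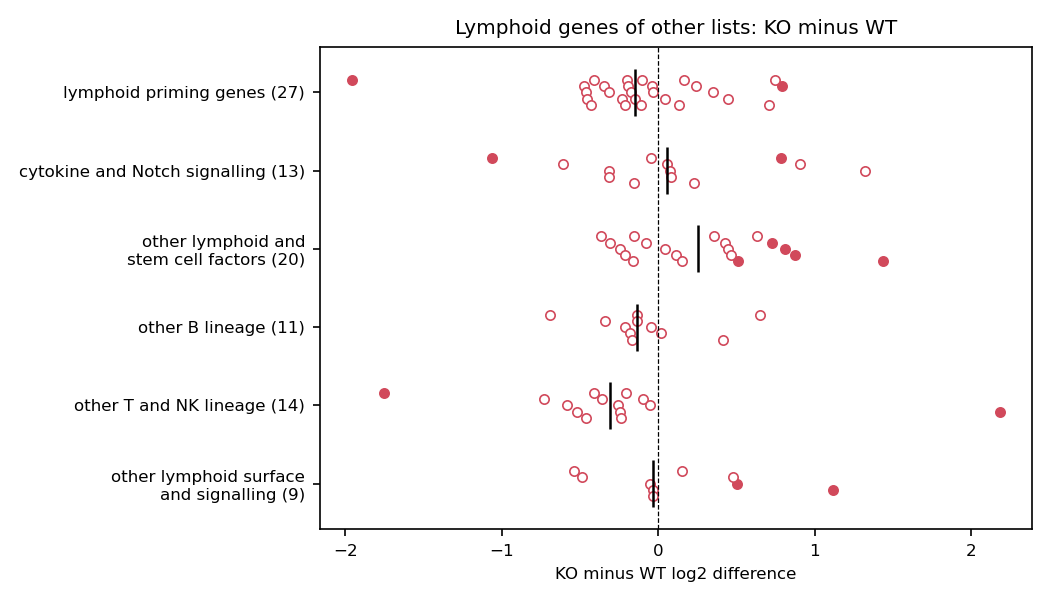
KO minus WT log2 differences of the tested lymphoid priming genes and of 5 further lists of lymphoid genes (number tested in parentheses), 1 point per gene; filled points have an unadjusted p under 0.05 and black bars are list medians. Klrb1c (2.18) and Cd52 (−1.96) lie farthest out, and no gene shown passed after adjustment.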

How the data were processed

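Log2 values per probe set were deposited, and the authors made them with RMA, which normalizes across arrays, as per the submitters' processing notes. RMA settings were not given in the sources used here, nor was a build. RMA compresses differences of dim transcripts, and amplification of RNA from few cells adds spread. Of 41345 probe sets, 23521 carried 1 symbol in the platform annotation, 1814 several, and 16010 are unnamed here; gene identifiers gave current symbols for 23328. A gene was tested if its mean reached the 25th percentile (3.31), which kept 16636. With limma 3.58.1 and R 4.3.3, genotype means were fitted over all 9 arrays (lmFit, eBayes; 6 residual and 4.26 prior degrees of freedom), two-sided, with Benjamini-Hochberg adjustment over all genes tested. The fit was tested on 5 simulated data sets with 200 genes changed in KO. At an adjusted p under 0.05 with limma it recovered 19.2% of changes of 1 log2 unit and 67.2% of changes of 2. Most changes of 1 log2 unit or less would thus not pass. Exact permutation tests used SciPy 1.17.1.

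Values on every array are given for genes with an unadjusted p under 0.05 in any comparison. They are also given for the 4 largest KO minus WT differences in each direction and for Il7r, Dntt, Rag1, Ikzf1, Satb1, Bcl11b and Cd52. Ebf1, Lax1, Ccr7, the second Gata3 probe set, and single B cell, NK, neutrophil, progenitor and HSC markers were added after values were seen. So were the neutrophil marker counts, the array ranges and weights, and the fits of marker and further lists without WT replicate 1 or KO replicate 3. From further lists up to 3 genes with the smallest p were named, and Flt3. Genes and lists were chosen with earlier results of these data known. Precision is limited by the 3 arrays per genotype.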

Additional observations from a re-analysis of the deposited data

How the results depend on the processing

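Under 10 other settings and with each array left out in turn, 0 lymphoid priming genes passed an adjusted p under 0.05 in any of the 3 comparisons; the smallest adjusted p of the genes given in full was 0.218, for Cd52 in KO against WT cells without WT replicate 2. The number of genes called over the whole array in KO against WT cells, 7, was 24 with array weights, 4 when genes under the median level were left out, 1 with only the 2 groups compared, 3 when quantile normalized again, 3 with sex as a term, 0 with each array's interquartile range as a term, 0 with the replicate block, and 0 to 15 with 1 array left out. The F test called 8 genes with array weights and 10 with a trend in the variance prior, and 0 to 2 with 1 array left out.

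The median difference of the list kept to −0.19 to −0.07 in KO against WT cells over the other settings and to −0.20 to −0.05 with 1 array left out. In KO against Het cells it was −0.0033 with the interquartile range term and −0.24 to −0.013 with 1 array left out, and in Het against WT cells it was −0.095 to 0.062 with 1 array left out. Genes above background on all arrays numbered 18, 5 and 21 under the 90th percentile, the 99th percentile and the Y-linked level, the last from 3 of 4 planned genes, and 11 to 13 with 1 array left out.

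Signs turned, with no value past the threshold, for Dntt in KO against WT cells (0.12), Cd79b in Het against WT (−0.094), Foxo1 in KO against Het (0.0021) and Cd52 in KO against Het (0.0030) with the interquartile range term, and for Cd79b in KO against WT (0.12) with array weights. With 1 array left out, the range crossed 0 in KO against WT cells for Cd79b (−1.06 to 0.0033), Bcl11b (−0.043 to 0.35) and Satb1 (−0.31 to 0.047). It did so in Het against WT cells for Irf8 (−0.61 to 0.028), Cd79b (−0.55 to 0.45) and Ikzf1 (−0.13 to 0.35), and in KO against Het cells for Foxo1 (−0.23 to 0.11), Ikzf2 (−0.49 to 0.19), Sox4 (−0.0083 to 0.30) and Cd52 (−0.62 to 0.24). The cause was not tested.

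Same-numbered arrays did not deviate together (correlations −0.19 to 0.23), so the numbers were not taken as pairs, and the replicate block changed no call of the list.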
